A study of Mus musculus with 12 samples.

Results

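The nuclear genome encodes most subunits of complex I (NADH:ubiquinone oxidoreductase), and their mRNA was examined in mouse hearts by RNA sequencing. All genes whose symbol is Nduf followed by a, b, c, s or v and a number were taken, with Ndufab1, which gave 37 of the 38293 genes in the deposited count tables. The hearts came from 4 groups of 3 mice on a C57Bl/6J background, 8–9 weeks old. WT sham were wild-type mice after a sham operation, and WT IR were wild-type mice 14 days after ischaemia–reperfusion (IR), in which the left anterior descending coronary artery was tied for 1 h and then released. Zeb2 WT IR were wild-type littermates of the transgenic mice, and Zeb2 cTg IR were transgenic mice, both likewise 14 days after IR. In the transgenic mice a Zeb2 transgene lies behind a floxed stop cassette in both Rosa26 alleles (R26-lslZeb2/lslZeb2), which a Cre recombinase under the Myh6 (αMHC) promoter switches on in cardiomyocytes, and whether the wild-type littermates carried the Cre was not given in the sources used here. The labels call the tissue left ventricle, the methods name the remote zone and the design text the infarct with its border zone, so which part of the wall was sampled is not settled.

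Complex I is the entry point of the respiratory chain. It passes electrons from NADH to ubiquinone and pumps protons across the inner mitochondrial membrane, and the resulting gradient drives ATP synthesis. It is L-shaped: the matrix arm holds the flavin and the iron–sulphur clusters, and the membrane arm holds the proton pumps, whose core subunits are encoded by the mitochondrial genome. The nuclear genome supplies the core subunits of the matrix arm and a shell of accessory subunits that assemble and stabilise the enzyme. Cardiac muscle is among the tissues richest in mitochondria, and its contraction depends on oxidative phosphorylation.

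The WT sham and WT IR libraries were deposited in 1 table and the Zeb2 WT IR and Zeb2 cTg IR libraries in another, and each was normalized and tested on its own. Between 20215781 and 36816818 reads of each library had been assigned to genes, of which 60.6% to 73.5% lay on the mitochondrial genome, so that 5706340 to 11618213 counts were left for all other genes. Levels are given as CPM (counts per 1e6 counts after TMM scaling), and 1 CPM stood for 17.2 to 37.8 counts. All 37 genes passed the filter on low counts in both tables, in which 13756 and 13018 genes were tested. All 22 cardiomyocyte markers were tested in both tables, with summed levels of 50138 to 74169 CPM per library. The tissue is a mixture of cells, so fewer cells of a type and less RNA per cell cannot be told apart. Each pair of libraries differed by more than sampling noise, and the labels give no batch or date.

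Zeb2 itself had 54.7, 57.8 and 67.0 CPM in Zeb2 WT IR and 55.5, 56.9 and 58.7 CPM in libraries labelled Zeb2 cTg IR, with a log2 fold change of -0.069 (SE 0.119, adjusted p = 0.750, quasi-likelihood test of edgeR). The groups overlapped, and each direction drawn from these libraries therefore rests on their labels. In the other table, Zeb2 had 49.0, 49.9 and 55.9 CPM in WT sham and 59.1, 80.8 and 74.6 CPM in WT IR (log2 fold change 0.47, SE 0.117, adjusted p = 0.0219).

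The first comparison asked how the injured wild-type heart differed from the sham-operated one. Each of the 37 genes had a lower mean after IR, with log2 fold changes from -0.87 (Ndufs3) to -0.020 (Ndufb4) and a median of -0.30, a decrease of 18.5%. The median of all genes tested was 0.0064. At an adjusted p-value below 0.05 in the quasi-likelihood test of edgeR, 15 of the 37 fell and 0 rose, beside 9.74% of all genes tested that fell and 11.0% that rose. In 24 of the 37, every WT IR library was below every WT sham library, beside 19.3% of all genes tested. Of the 22 genes that did not pass, 10 had an adjusted p-value between 0.05 and 0.1.

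**Figure D1:**
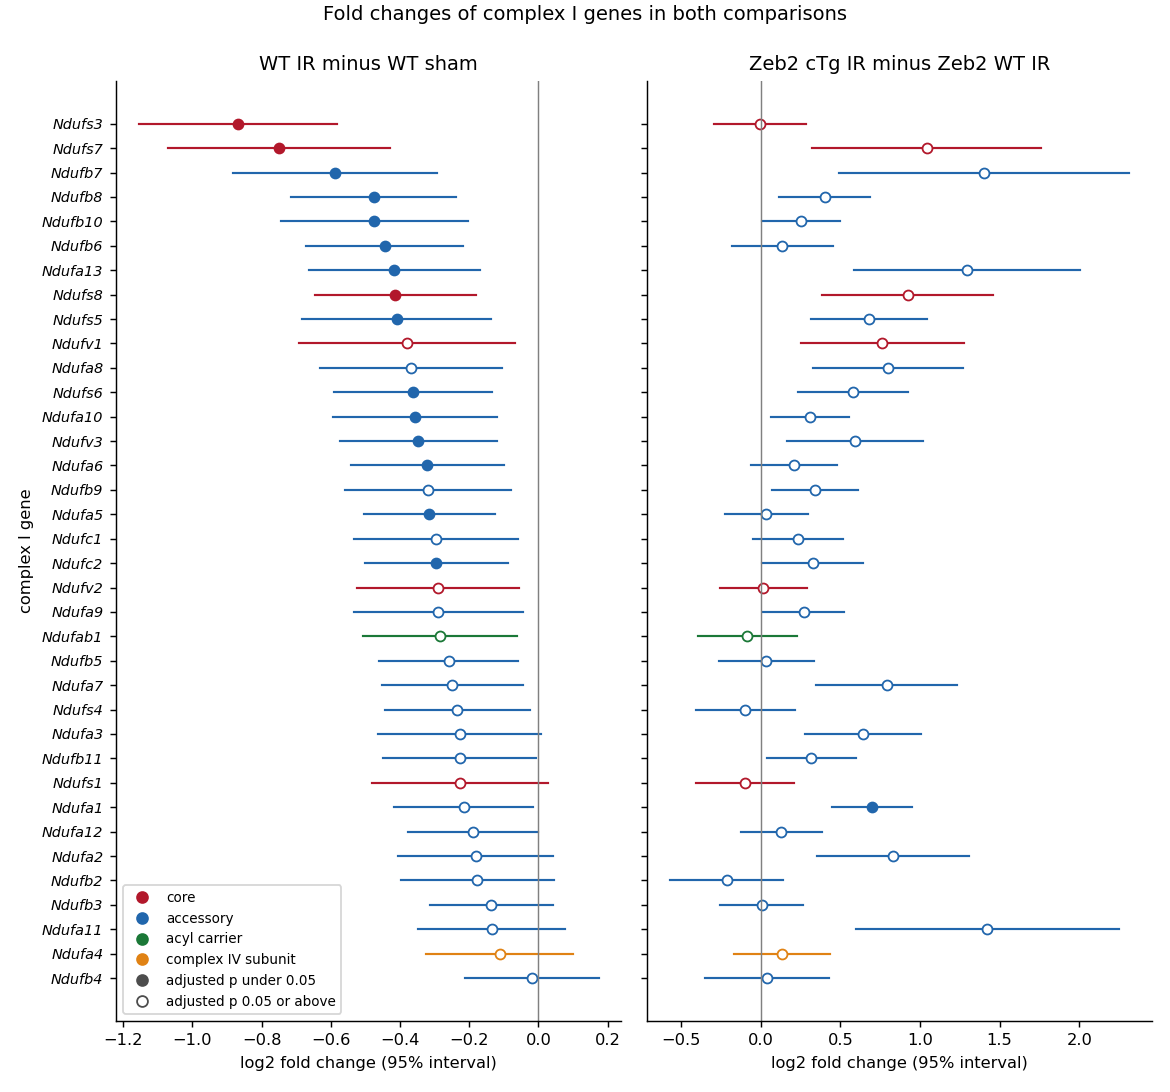
Log2 fold change of 36 of the 37 genes (points) with its 95% interval (lines), WT IR minus WT sham on the left and Zeb2 cTg IR minus Zeb2 WT IR on the right, with n = 3 mice per group. On the left all 36 points lie below 0 and 15 are filled (adjusted p under 0.05); on the right 31 lie above 0 and 1, Ndufa1, is filled.

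The core subunits of the matrix arm carry electrons, and 3 of 7 fell, beside 9.74% of all genes tested. The median log2 fold change of the 7 was -0.38. Ndufs3, a core subunit of the module that reduces ubiquinone, had 30.7, 31.0 and 32.0 CPM in WT sham and 21.2, 15.3 and 14.8 CPM in WT IR. All 3 injured hearts lay below all 3 sham hearts, and the log2 fold change was -0.87 (SE 0.127, adjusted p = 0.00431), the lowest of the 37. Ndufs7, which holds the last iron–sulphur cluster before ubiquinone, had 72.4, 74.0 and 70.8 CPM in WT sham against 55.1, 37.0 and 37.2 CPM in WT IR (log2 fold change -0.75, SE 0.143, adjusted p = 0.00934). Ndufs8, the neighbouring iron–sulphur subunit, had 68.8, 73.9 and 74.7 CPM against 63.1, 51.8 and 48.3 CPM (log2 fold change -0.41, SE 0.104, adjusted p = 0.0231). In both, the sham hearts lay close together and the first injured heart lay nearest to them.

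The other 4 core subunits did not pass, and values are given for 3 of them. Ndufv1, which binds NADH and the flavin, had 200, 182 and 161 CPM in WT sham and 171, 123 and 124 CPM in WT IR (log2 fold change -0.38, adjusted p = 0.0820), and the first injured heart lay within the sham range. Ndufv2, an iron–sulphur subunit beside Ndufv1, had 170, 180 and 198 CPM against 167, 148 and 133 CPM (-0.29, adjusted p = 0.0764). Its groups did not overlap, whereas those of Ndufv1 did. Ndufs1, the largest subunit, had 278, 280 and 267 CPM against 275, 225 and 205 CPM (-0.23, adjusted p = 0.182).

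Of the 19 accessory subunits placed in the membrane arm, 8 fell, beside 9.74% of all genes tested. The median log2 fold change of the 19 was -0.30. Ndufb7, which lies on the intermembrane-space side, had 59.6, 61.8 and 61.8 CPM in WT sham and 50.5, 37.4 and 33.9 CPM in WT IR (log2 fold change -0.59, SE 0.131, adjusted p = 0.0158). Ndufb8, in the distal part of the arm, had 129, 141 and 150 CPM against 114, 98.4 and 89.2 CPM (-0.48, SE 0.106, adjusted p = 0.0155). Ndufb10, also distal, had 98.7, 108 and 109 CPM against 91.0, 71.6 and 65.2 CPM (-0.47, SE 0.121, adjusted p = 0.0240). In these genes each injured heart was below each sham heart, and the first was again the highest of the injured hearts. Ndufb6 had 38.3, 38.1 and 38.8 CPM against 32.4, 27.9 and 24.4 CPM (-0.44, SE 0.101, adjusted p = 0.0167). Ndufa13, also known as Grim19, had 118, 122 and 127 CPM against 108, 85.3 and 82.2 CPM (-0.42, SE 0.110, adjusted p = 0.0274). Ndufs5, Ndufa10 and Ndufc2 passed as well, with log2 fold changes of -0.41, -0.36 and -0.30. At the other end, Ndufb4 had 13.3, 15.3 and 15.7 CPM against 14.8, 14.4 and 14.4 CPM (-0.020, 95% interval -0.21 to 0.17, adjusted p = 0.896), and Ndufa11 had 50.9, 52.8 and 49.5 CPM against 53.2, 42.9 and 43.6 CPM (-0.13, 95% interval -0.35 to 0.078, adjusted p = 0.335). In both of these the groups overlapped.

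Of the 9 accessory subunits of the matrix arm, Ndufa5, Ndufs6, Ndufv3 and Ndufa6 fell, with log2 fold changes from -0.36 (Ndufs6) to -0.32 (Ndufa5), and the median of the 9 was -0.29. The groups did not overlap in 7 of the 9. Of all genes tested, 9.74% fell and 19.3% were lower without overlap. Ndufab1, the mitochondrial acyl carrier protein, which sits in both arms and also serves lipoic acid synthesis, had 27.9, 31.4 and 34.7 CPM in WT sham and 27.9, 25.6 and 23.4 CPM in WT IR (log2 fold change -0.28, adjusted p = 0.0701). Ndufa4, which carries a complex I name but is now counted as a subunit of complex IV (cytochrome c oxidase), had 184, 189 and 193 CPM against 195, 172 and 158 CPM (-0.11, adjusted p = 0.429), and its groups overlapped. Its paralogue Ndufa4l2 had a mean of 2.89 ± 0.0975 CPM (SD, n = 3) in WT sham and 3.01 ± 0.0905 CPM (SD, n = 3) in WT IR (log2 fold change 0.060, adjusted p = 0.772).

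The injured hearts did not differ from the sham hearts by the same amount. WT IR 1 was the highest of the 3 injured libraries in all 37 genes. It lay below every sham library in 24, whereas WT IR 2 and WT IR 3 did so in 36 each. The shares of all genes by library are not given here, so how far this holds for other genes was not tested. Relative to the mean of WT sham, the median gene changed by -8.33% in WT IR 1, -21.8% in WT IR 2 and -27.0% in WT IR 3. Markers of fibroblasts and macrophages moved in the same order. The median of 8 fibroblast markers was 143%, 244% and 432% above the sham mean. That of 8 macrophage markers was 27.7%, 99.5% and 166% above it. The median of 22 cardiomyocyte markers changed by -3.28%, -16.6% and -17.5%. Over the whole lists, 7 of 8 fibroblast markers and 6 of 8 macrophage markers rose and 4 of 22 cardiomyocyte markers fell, with summed fibroblast levels of 495 to 894 CPM in WT sham and 1814 to 4535 CPM in WT IR. Nppa rose (3.57, adjusted p = 0.00156, edgeR). Of 6 smooth muscle and pericyte markers, Acta2 fell (-0.57, adjusted p = 0.0163, edgeR) whereas 2 rose, with a median of 0.088. Those 2 were Tagln (0.77) and Pdgfrb (0.48). Of 8 endothelial markers, 0 passed and 6 were below 0, with a median of -0.20. The part of cell composition in the lower complex I mRNA was not tested.

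The spread followed the same lines, since the median coefficient of variation of the 37 genes was 4.47% among the sham hearts and 12.6% among the injured hearts. Without WT IR 1, 35 of the 37 genes fell, where 17.6% of all genes tested did. Without 1 of the other libraries the number lay between 1 (without WT sham 2; 1.41% of all genes) and 7 (without WT IR 3; 6.09%), with 2 each without WT sham 3 (5.14%) and WT IR 2 (2.55%) and 4 without WT sham 1 (3.87%). Ndufs3 passed in all 6 of these fits and Ndufs7 in 5. When the libraries were scaled on the 22 cardiomyocyte markers in place of all genes, the median of all genes moved to 0.24 and that of the 37 to -0.069, and Ndufs3, Ndufs7 and Ndufb7 were the 3 genes that fell, beside 2.80% of all genes. In that scaling 28 of the 37 were below 0.

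**Figure D2:**
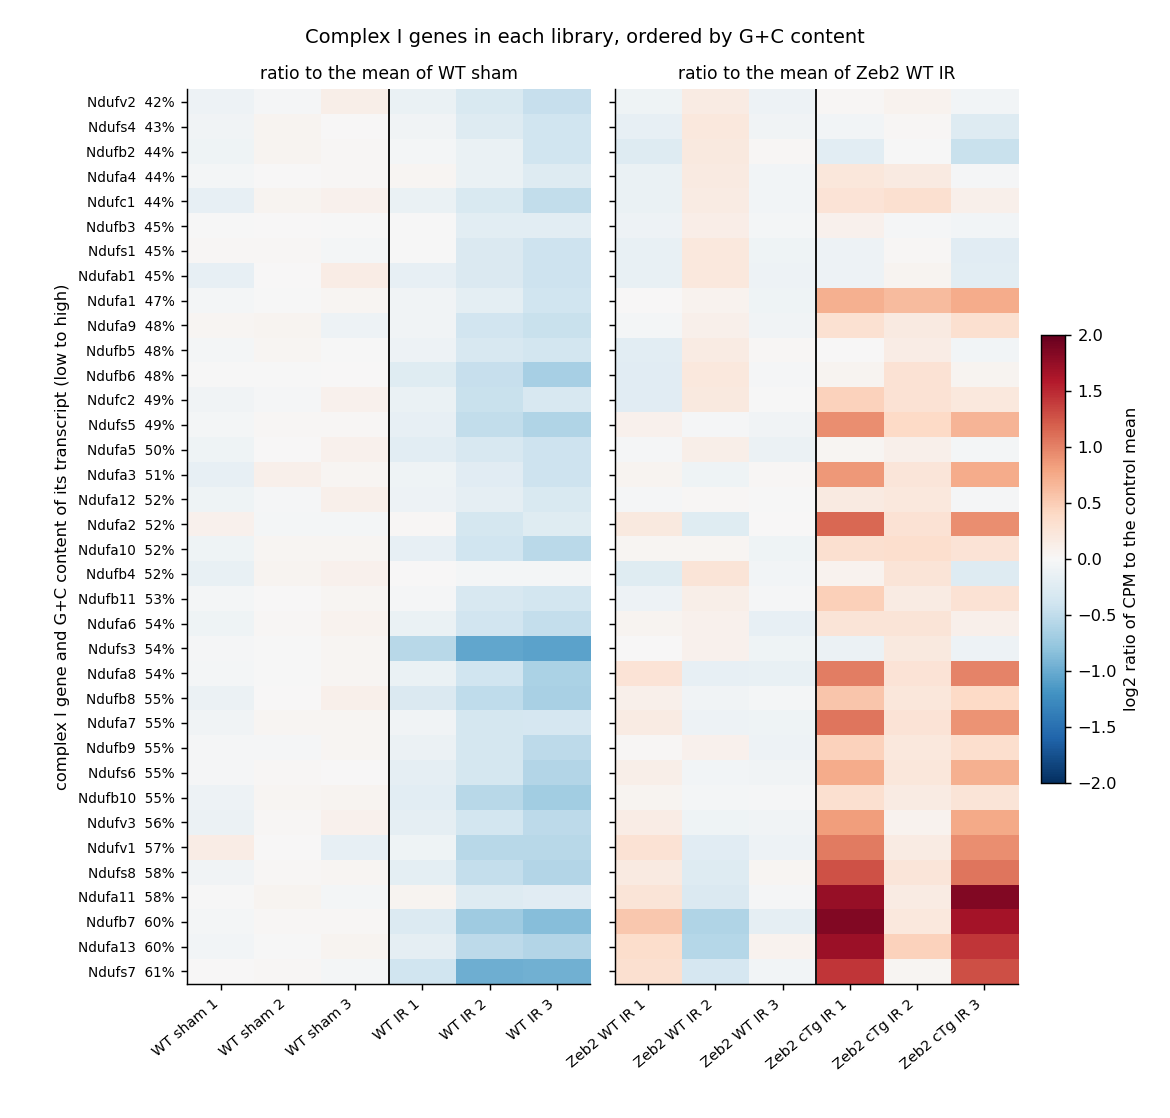
Log2 ratio of the CPM in each library to the mean of the control group (WT sham on the left, Zeb2 WT IR on the right), 1 row for each of 36 genes, ordered from low to high G+C content of the transcript. WT IR 1 is paler than WT IR 2 and 3, and the deepest red of libraries labelled Zeb2 cTg IR lies at the bottom, among the genes with most G+C, in replicates 1 and 3.

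The second comparison asked how the injured hearts of the transgenic mice differed from those of their wild-type littermates. Under the label Zeb2 cTg IR, 32 of the 37 genes had a higher fitted level and 5 a lower one, with a median log2 fold change of 0.32 (an increase of 24.5%), where the median of all genes tested was 0.0059. At an adjusted p-value below 0.05 in the same edgeR test, 1 gene rose and 0 fell, beside 2.14% of all genes that rose and 1.51% that fell, and 22 of the 37 had an unadjusted p-value under 0.05. At an adjusted p-value under 0.1, 13 rose, beside 5.86% of all genes. The groups did not overlap in 18 of the 37, all of them higher, beside 13.4% of all genes that were higher without overlap.

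The gene that rose was Ndufa1, a small subunit anchored in the membrane arm by a single helix and encoded on the X chromosome (positions 37187588 to 37191163, minus strand, GRCm38). It had 28.7, 29.9 and 26.7 CPM in Zeb2 WT IR and 46.7, 43.9 and 47.7 CPM in libraries labelled Zeb2 cTg IR (log2 fold change 0.70, 95% interval 0.45 to 0.95, SE 0.112, adjusted p = 0.0139). All 3 libraries of each group lay close together. Leaving out 1 library kept the log2 fold change between 0.65 and 0.73, and the gene passed in 3 of these 6 fits: the adjusted p-value was 0.0913 without Zeb2 WT IR 3, 0.0633 without Zeb2 cTg IR 1 and 0.0705 without Zeb2 cTg IR 3. In WT IR against WT sham it had 38.5, 39.2 and 40.5 CPM against 37.4, 34.3 and 29.9 CPM (-0.22, adjusted p = 0.116).

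The largest differences in this table came with a wide spread. Ndufa11, a membrane subunit at the junction of the arms, had 22.2, 15.2 and 18.2 CPM in Zeb2 WT IR and 61.7, 20.6 and 66.6 CPM in libraries labelled Zeb2 cTg IR (log2 fold change 1.42, SE 0.368, adjusted p = 0.0640). Ndufb7 had 20.0, 9.02 and 12.1 CPM against 49.5, 15.8 and 43.5 CPM (1.40, SE 0.405, adjusted p = 0.0835), and Ndufa13 had 44.2, 23.4 and 36.5 CPM against 114, 47.8 and 93.6 CPM (1.29, SE 0.315, adjusted p = 0.0556). In all 3 genes, replicate 2 of each group was the lowest, and the library labelled Zeb2 cTg IR 2 lay within or just above the range of Zeb2 WT IR.

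Among the core subunits, Ndufs7 had 25.1, 15.9 and 19.3 CPM in Zeb2 WT IR and 54.1, 20.6 and 49.2 CPM in libraries labelled Zeb2 cTg IR (log2 fold change 1.04, adjusted p = 0.0969). Ndufs8 had 30.2, 22.4 and 27.6 CPM against 64.2, 31.7 and 56.1 CPM (0.92, adjusted p = 0.0640), and Ndufv1 had 149, 104 and 114 CPM against 251, 137 and 233 CPM (0.76, adjusted p = 0.0910). These 3 share the same shape, with 2 high libraries and 1 close to the controls. Another 3 core subunits lay near 0. Ndufv2 had 162, 192 and 161 CPM against 175, 180 and 165 CPM (0.016), and Ndufs3, which had the largest decrease after IR, had 47.4, 49.9 and 44.3 CPM against 43.4, 54.0 and 43.8 CPM (-0.0043, 95% interval -0.29 to 0.28, adjusted p = 0.988). Ndufs1 had 341, 435 and 355 CPM against 350, 384 and 321 CPM (-0.10, adjusted p = 0.681).

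The other genes with a fitted level below that of Zeb2 WT IR were Ndufb2, Ndufs4 and Ndufab1. Ndufb2, a subunit of the membrane arm, had 31.2, 43.1 and 38.0 CPM against 32.2, 37.1 and 27.6 CPM (-0.21, adjusted p = 0.423). Ndufs4, a matrix-arm subunit needed for a stable NADH-binding module, had 69.5, 89.8 and 73.9 CPM against 74.9, 78.6 and 64.7 CPM (-0.096, adjusted p = 0.692), and Ndufab1 had 28.6, 36.6 and 29.6 CPM against 29.3, 32.8 and 27.3 CPM (-0.084, adjusted p = 0.738). In all 3 the groups overlapped, and Zeb2 WT IR 2 was the highest library. Ndufa4 had 217, 270 and 228 CPM against 280, 269 and 235 CPM (0.13, adjusted p = 0.561). By position in the enzyme, the median log2 fold change was 0.27 for the 9 accessory subunits of the matrix arm and 0.33 for the 19 of the membrane arm.

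The number of genes that rose depended most on the library labelled Zeb2 cTg IR 2. Without it 16 of the 37 genes rose, beside 1594 of the 13314 genes tested in that fit. Without Zeb2 WT IR 3, Zeb2 cTg IR 1 or Zeb2 cTg IR 3 the number was 0 (0.376%, 0.608% and 0.539% of all genes), and without either of the other libraries it was 1. The median of the 37 log2 fold changes lay between 0.25 and 0.37 in these 6 fits. Markers of other cells differed here too: 3 of 8 fibroblast markers fell, with summed levels of 874 to 1970 CPM in Zeb2 WT IR and 509 to 624 CPM in libraries labelled Zeb2 cTg IR, and 2 of 22 cardiomyocyte markers rose, Mybpc3 and Tnnt2. Nppa, an atrial and stress-induced cardiomyocyte gene, rose as well (2.43, adjusted p = 0.0182, edgeR), as did Acta2 (1.67, adjusted p = 0.00463, edgeR). Acta2 alone passed among 6 smooth muscle and pericyte markers. Of these 6, 4 were above 0 and 2 below, with a median of 0.11. Of 8 macrophage and 8 endothelial markers, 0 passed. Scaled on the 22 cardiomyocyte markers, the median of all genes moved to -0.21 and that of the 37 to 0.097, with 14 below 0, and Ndufa1 no longer passed (0.48, adjusted p = 0.0518). The part of cell composition was not tested.

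The G+C content of the transcripts set the 37 genes apart from one another in both tables. It ranged from 42.0% to 60.7% (median 52.1%, against 50.1% over the genes tested in the table of WT hearts), and the transcripts were short, with a median of 875 bases against 2923, and 22 of the 37 under 1000 bases against 9.43% of those genes. Across the 37, which are not independent of one another, the log2 fold change fell with G+C content after IR (Spearman's rho -0.56) and rose with it in libraries labelled Zeb2 cTg IR (0.74). Over all genes with a transcript the same relation had a rho of -0.31 (13609 genes) and 0.57 (12892 genes). With transcript length, rho was -0.014 and -0.51 over the 37 and 0.047 and -0.20 over all genes. The points of each correlation come from the same 6 libraries.

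The coding sequences show the contrast in composition. The middle 90 bases of 9 coding sequences are printed, chosen after their values were seen. They are from 4 genes rich in G+C, 3 genes poor in it (Ndufv2, Ndufs4 and Ndufs1), and Ndufs3 and Ndufa1. By coding sequence, Ndufs3 and Ndufa1 lie between, whereas the whole transcript of Ndufa1 has 47.5% G+C. G and C are in capitals, and all bases were taken from coding exons of the GENCODE M21 annotation (GRCm38). Ndufs7 is on chromosome 10 (80249121 to 80256794), Ndufb7 and Ndufa13 on chromosome 8 (83566671 to 83571626 and 69894180 to 69902558) and Ndufa11 on chromosome 17 (56717767 to 56722141). Ndufs3 is on chromosome 2 (90894634 to 90904827), Ndufv2 on chromosome 17 (66078638 to 66101559), Ndufs4 on chromosome 13 (114287795 to 114388258) and Ndufs1 on chromosome 1 (63143596 to 63176833). Ndufs7, Ndufb7 and Ndufa11 lie on the plus strand and the others on the minus strand, and each sequence reads 5′ to 3′ along the mRNA. The first 4 hold 51 to 59 G or C in their 90 bases and the last 3 hold 34 to 39.
Ndufs7: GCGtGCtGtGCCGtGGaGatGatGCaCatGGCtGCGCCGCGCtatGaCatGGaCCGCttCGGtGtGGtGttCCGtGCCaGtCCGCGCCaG
Ndufb7: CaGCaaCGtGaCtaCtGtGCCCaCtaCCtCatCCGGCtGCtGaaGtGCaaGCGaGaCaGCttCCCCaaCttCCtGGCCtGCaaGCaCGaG
Ndufa13: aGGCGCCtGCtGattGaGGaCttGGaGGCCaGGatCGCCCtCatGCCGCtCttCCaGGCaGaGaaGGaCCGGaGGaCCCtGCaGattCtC
Ndufa11: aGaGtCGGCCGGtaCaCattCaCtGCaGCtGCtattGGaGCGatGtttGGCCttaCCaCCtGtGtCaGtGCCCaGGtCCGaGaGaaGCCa
Ndufs3: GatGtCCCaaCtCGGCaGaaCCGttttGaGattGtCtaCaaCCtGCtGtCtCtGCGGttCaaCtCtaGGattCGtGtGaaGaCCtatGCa
Ndufa1: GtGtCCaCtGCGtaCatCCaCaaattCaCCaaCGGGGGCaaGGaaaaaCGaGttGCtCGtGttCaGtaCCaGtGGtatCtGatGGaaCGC
Ndufv2: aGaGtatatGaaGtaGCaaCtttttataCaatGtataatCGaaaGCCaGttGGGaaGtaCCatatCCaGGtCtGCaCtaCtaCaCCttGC
Ndufs4: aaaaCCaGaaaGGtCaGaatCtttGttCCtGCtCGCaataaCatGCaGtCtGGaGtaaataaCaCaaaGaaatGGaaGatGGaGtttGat
Ndufs1: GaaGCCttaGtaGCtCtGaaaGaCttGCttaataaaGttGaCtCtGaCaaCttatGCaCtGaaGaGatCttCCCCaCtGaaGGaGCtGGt

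Over the whole coding sequence, G+C content reached 61.6% in Ndufs7 and 45.1% in Ndufs1, the highest and lowest of the 37. At the third codon position it ranged from 39.2% in Ndufs1 to 85.4% in Ndufa13. Ndufs3, with 53.6% over its coding sequence, lay in the middle of the range and had the largest decrease after IR but no difference beyond its spread in libraries labelled Zeb2 cTg IR. Ndufa1, with 52.4%, was the gene that rose there. Its whole transcript, untranslated parts included, has 47.5% G+C, which places it among the 12 genes with least G+C in the split below.

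Split by G+C content into 12, 12 and 13 genes, the 37 had median log2 fold changes after IR of -0.25, -0.31 and -0.38, where all genes in the same ranges of G+C content had 0.071, -0.014 and -0.15. In each range the median of the complex I genes lay below that of all genes, and 1, 6 and 8 of them fell. Of all genes in these ranges, 61.6%, 48.1% and 34.9% had a log2 fold change above 0. The shares of all genes that fell in each range are not given here, and 9.74% of all genes tested fell. The medians of all genes in these ranges with transcripts under 1000 bases were 0.056, -0.037 and -0.13. In libraries labelled Zeb2 cTg IR the medians were 0.026, 0.31 and 0.79, where all genes in the same ranges had -0.15, 0.066 and 0.37. Here the median of the complex I genes lay above that of all genes in each range. All genes with transcripts under 1000 bases had medians of -0.032, 0.14 and 0.55, nearer to the complex I genes in each range.

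**Figure D3:**
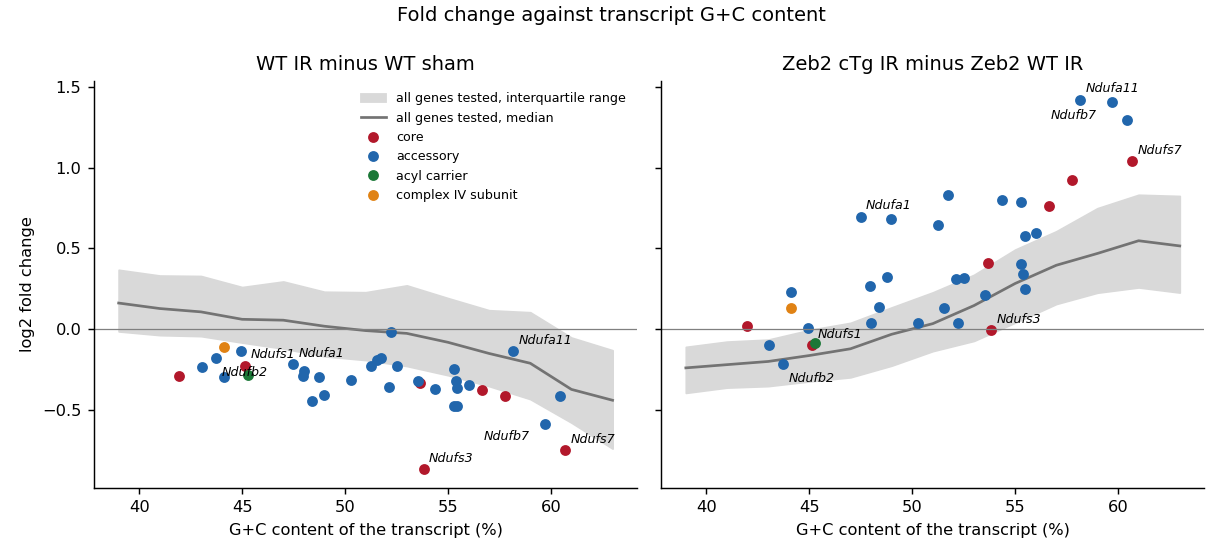
Log2 fold change of the 37 genes (points, coloured by role) against the G+C content of the transcript in percent, WT IR minus WT sham on the left and Zeb2 cTg IR minus Zeb2 WT IR on the right; the line and band are the median and the interquartile range of all genes tested in steps of G+C content. The points fall along the line on the left (rho -0.56) and rise along it on the right (rho 0.74), mostly below the line on the left and above it on the right.

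By library, the 13 genes with most G+C (54.4% to 60.7%) had median log2 ratios to the mean of Zeb2 WT IR of 0.18, -0.16 and -0.066 in Zeb2 WT IR 1 to 3 and of 1.04, 0.21 and 0.93 in libraries labelled Zeb2 cTg IR. All genes in that range of G+C content had 0.20, -0.23 and -0.016, and 0.50, 0.017 and 0.53. In both sets of genes replicate 2 was the lowest library of each group. The 13 genes all lay above every Zeb2 WT IR library in Zeb2 cTg IR 1 and 3, and 8 of them did so in Zeb2 cTg IR 2. The shares of all genes that did so by library are not given here. Of all genes in that range of G+C content, 83.6% had a log2 fold change above 0. Among the 12 genes with least G+C, the medians were -0.14, 0.17 and -0.066, and 0.043, 0.10 and -0.050, and these medians overlapped between the groups. Ndufa1 (47.5% G+C in its transcript) and Ndufa9 (48.0%) belong to these 12, and in each of them the groups did not overlap.

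A correction for G+C content and transcript length was then applied to every library, by a smooth fit over all genes used as an offset in the same test. After IR, 17 of the 37 genes fell with the correction for G+C content, 16 with that for length and 16 with both, beside 11.1%, 12.9% and 9.97% of all genes. With both, 36 of the 37 were below 0, the exception being Ndufa11 (0.018), the median was -0.34, and Ndufs3 (-0.86, adjusted p = 0.00417) and Ndufs7 (-0.50, adjusted p = 0.0246) still fell. Ndufb7 (-0.37, adjusted p = 0.0577), Ndufs8 (-0.28, adjusted p = 0.0810) and Ndufa13 (-0.18, adjusted p = 0.240) no longer passed, whereas Ndufv2 did (-0.49, adjusted p = 0.0217). The direction of the group after IR did not turn under these corrections.

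In libraries labelled Zeb2 cTg IR, the median fell from 0.32 to 0.24 with the correction for G+C content, to 0.12 with that for length and to 0.21 with both. The number of genes above 0 was 33, 23 and 29, and the number that rose was 10, 0 and 5, beside 3.56%, 2.10% and 3.34% of all genes. With both corrections the 5 were Ndufa1 (0.66, adjusted p = 0.00658), Ndufs5 (0.60, adjusted p = 0.0312), Ndufa13 (0.74, adjusted p = 0.0365), Ndufc1 (0.37, adjusted p = 0.0332) and Ndufa3 (0.45, adjusted p = 0.0493). Ndufa11 (0.86, adjusted p = 0.0713) and Ndufb7 (0.80, adjusted p = 0.105) did not pass. Ndufs7 went from 1.04 to 0.40 (adjusted p = 0.186). The values of G+C content and length moved with the result, and what sets the relation was not tested.

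**Figure D4:**
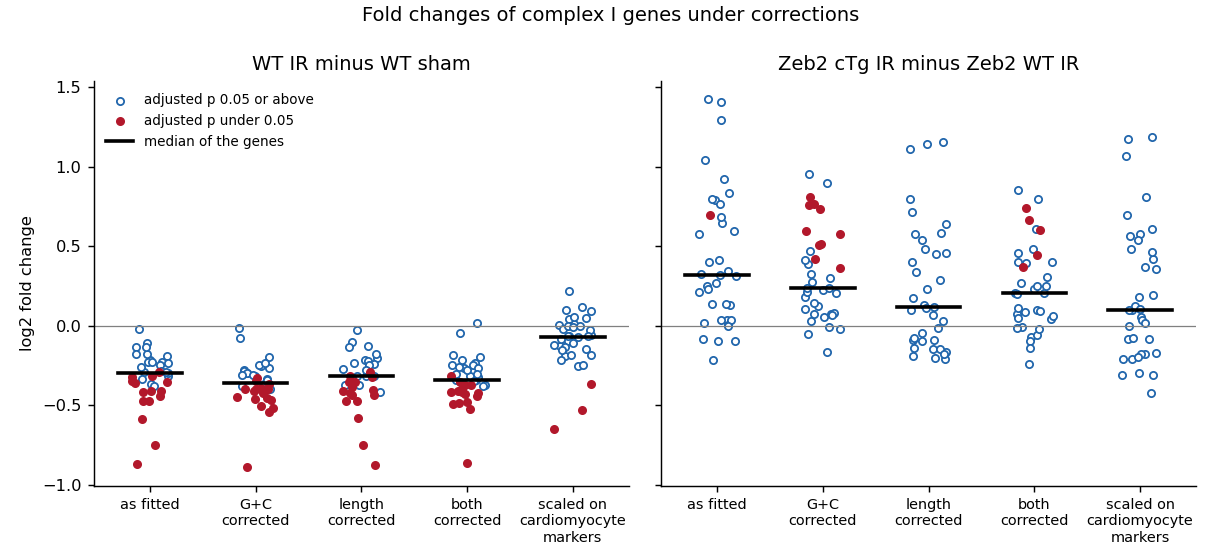
Log2 fold change of the 37 genes (points; red where the adjusted p-value is under 0.05) and their median (bars) as fitted, after correction for G+C content, for length and for both, and with scaling on 22 cardiomyocyte markers, WT IR minus WT sham on the left and Zeb2 cTg IR minus Zeb2 WT IR on the right. On the left the medians are -0.30, -0.36, -0.32, -0.34 and -0.069; on the right they are 0.32, 0.24, 0.12, 0.21 and 0.097.

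The tables hold separate mice, so their differences can be set side by side. Of the 15 genes that fell after IR, 14 had a log2 fold change above 0 in libraries labelled Zeb2 cTg IR. Ndufs3 was the exception, and in 9 of the 14 the groups did not overlap. Among all 37 genes, 32 were above 0 there and 18 were higher without overlap. The direction was thus not particular to the genes that fell. Across the 37 genes the log2 fold changes of the comparisons had a Pearson correlation of -0.26 and a Spearman correlation of -0.34. After the correction for G+C content and length these were 0.33 and 0.18. The sign of the correlation across genes therefore turned with the correction.

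Levels could be ordered per kilobase of transcript for 34 genes, leaving out Ndufb2, Ndufab1 and Ndufc1, whose annotated principal transcripts differ in length by more than 1.5 times. In WT sham, Ndufa4 (310 ± 7.15 CPM per kilobase, SD, n = 3) was highest, followed by Ndufb9 (279 ± 6.35) and Ndufb8 (206 ± 15.5), and none of these 3 overlapped. The lowest were Ndufs5 (14.1 ± 0.320), Ndufb4 (15.2 ± 1.31), which overlapped Ndufs5, and Ndufs3 (29.8 ± 0.634). The highest level was 21.9 times the lowest. The order was much the same in WT sham and WT IR (Spearman's rho 0.96 across the 34 genes). It was less so in Zeb2 WT IR and Zeb2 cTg IR (0.88). Between WT IR and Zeb2 WT IR, which are in different tables, rho was 0.76, below that within either table.

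**Figure D5:**
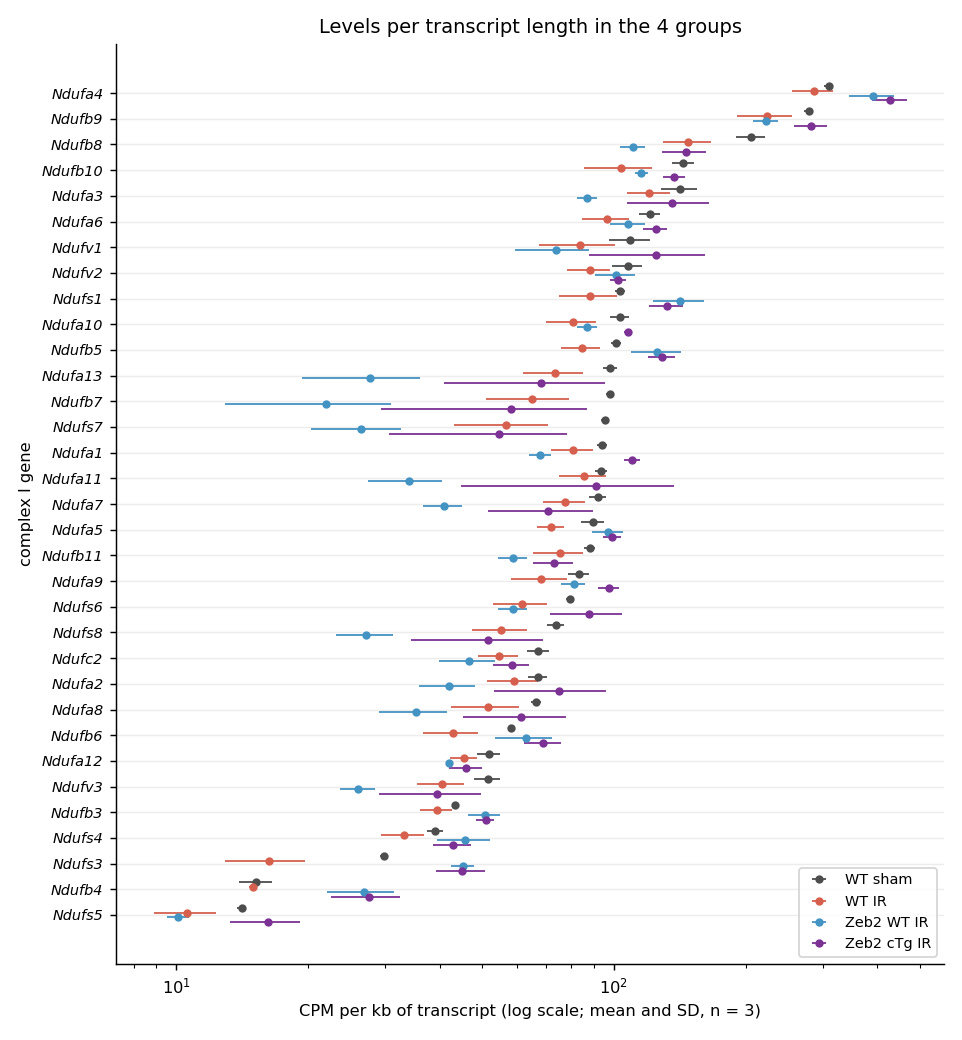
Level of 33 complex I genes in CPM per kilobase of transcript (log scale), with the mean and SD of 3 mice in each of the 4 groups. Ndufa4 and Ndufb9 lie at the top and Ndufs5 at the bottom in WT sham, and the genes with the largest SD relative to their mean are Ndufb7, Ndufs7, Ndufa13 and Ndufa11 in libraries labelled Zeb2 cTg IR.

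Several counts are uncertain because other genes share sequence or position with them. The copies Ndufs6b, Ndufab1-ps and Ndufa11b received 122 to 280, 20 to 72 and 24 to 45 counts per library in the table of WT hearts and 2 to 6, 0 to 1 and 0 to 1 in the other table. Processed pseudogenes as a whole took 0.797% to 0.829% of the counts outside the mitochondrial genome in the former and 0.0677% to 0.0957% in the latter. Levels of single genes were therefore not compared across the tables. Ndufs6b fell in the table of WT hearts (log2 fold change -0.62, adjusted p = 0.00919), as did Ndufs6. Of the 37 genes, 13 overlap another coding gene of the tables, and whether the counting used the strand was not given in the sources used here. For Ndufb2 the overlapping gene Braf had a mean count equal to 93.3% of its own in the table of WT hearts and 78.5% in the other, for Ndufs3 the overlapping gene Kbtbd4 30.3% and 15.6% and for Ndufs1 the gene Eef1b2 11.3% and 10.1%.

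The other parts of the respiratory chain were set beside the 37 genes. Of 18 assembly factors of complex I, which build the enzyme without staying in it, 8 fell after IR and 0 rose. Of all genes tested, 9.74% fell and 11.0% rose. The median log2 fold change of the 18 was -0.32. Ndufaf8 had 4.05, 4.02 and 5.18 CPM in WT sham and 2.19, 2.27 and 2.46 CPM in WT IR (-0.92, adjusted p = 0.00569). Timmdc1 (-0.47, adjusted p = 0.00734) and Ndufaf4 (-0.49, adjusted p = 0.0104) also fell, and in each of these 3 the groups did not overlap. Of the complex I subunits of the mitochondrial genome, 5 of 7 passed the filter, with a median of -0.49, and mt-Nd6 (-0.47, adjusted p = 0.0135) and mt-Nd2 (-0.62, adjusted p = 0.0492) fell.

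After IR 9.74% of all genes tested fell. Complex II had 1 of 4 genes lower (Sdha, -0.41) and complex III 5 of 9. Complex IV had 6 of 13 and complex V (ATP synthase) 2 of 14, and in none of these complexes did a gene rise. Their medians were -0.29, -0.36, -0.32 and -0.25. The lowest of these genes was Cox5b, a subunit of complex IV, with 75.4, 80.3 and 87.1 CPM in WT sham and 47.3, 35.8 and 33.1 CPM in WT IR (-1.06, adjusted p = 0.00266). In libraries labelled Zeb2 cTg IR the medians of complexes II to V were 0.30, 0.47, 0.35 and 0.19, that of the assembly factors was 0.12, and Uqcr11 of complex III was the single gene that rose (1.29, adjusted p = 0.0399). The complex I subunits of the mitochondrial genome lay on the other side there, with a median of -0.14 and 5 of 5 below 0, and after the correction for G+C content and length their median was 0.12. Their transcripts had a median G+C content of 35.7%.

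Nuclear genes of the respiratory chain are known to share binding sites for NRF1, ETS-family factors such as GABPA, oestrogen-related receptors and YY1. The 250 bases upstream of the start were available from RefSeq (GRCm38.p6) for 33 of the 37 genes, and fixed letters were searched on both strands. GCATGCGC (NRF1) was found in 3 of 33 (9.09%, against 2.56% of 27025 genes), CCGGAAG (ETS) in 3 (9.09% against 7.83%), AAGGTCA (oestrogen-related receptors) in 3 (9.09% against 4.70%) and AAGATGGC (YY1) in 0 (against 1.83%). Of the 3 genes with each set of letters, 3 fell after IR for ETS (Ndufb6, Ndufb7 and Ndufs3), 1 for NRF1 and 1 for the oestrogen-related receptors, and 15 of the 33 genes with a window fell. The window of Ndufb6 (chr4:40279422-40279671, GRCm38.p6, minus strand), printed as the example that overlaps no annotated exon, holds those letters on the reverse strand, shown in capitals.
Ndufb6: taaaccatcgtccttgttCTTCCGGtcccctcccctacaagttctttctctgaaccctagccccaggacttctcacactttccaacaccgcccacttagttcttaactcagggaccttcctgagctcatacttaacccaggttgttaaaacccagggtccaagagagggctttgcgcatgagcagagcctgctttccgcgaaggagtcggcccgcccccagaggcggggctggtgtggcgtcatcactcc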

How the data were processed

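Left ventricular RNA of 12 mice, 3 per group, had been sequenced as single-end reads. The authors aligned the reads with STAR, which the methods name, and counted them per gene; the submitters' processing notes give STAR 2.4.2a, HTSeq 0.6.1 and the mouse build mm10. The authors deposited raw whole-number counts in 2 tables of 6 libraries. The labels name an mRNA kit and the methods a total RNA kit. All sample columns were used.

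Each table was fitted on its own in R 4.3.3 with edgeR 4.0.16: TMM factors, filterByExpr (minimum count 10, total 15), its quasi-likelihood test, and adjustment by Benjamini-Hochberg across the genes tested, threshold 0.05. SEs and 95% intervals come from that test. The same test on simulated counts was checked first. DESeq2 1.42.0, limma-voom (limma 3.58.1), other size factors and filters, the replicate number as a block, 1 fit of all 12 libraries, leaving out 1 library at a time, and corrections for G+C content and length (loess, span 0.5, used as offsets) were alternatives. Symbols, positions, lengths and G+C content come from the principal coding transcript of GENCODE M21 (GRCm38); 36345 of 38293 identifiers matched a symbol. Upstream windows are RefSeq's.

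Values per library are given for the core subunits (1 of the 7 is not reported here), Ndufa4, Ndufab1, genes with an adjusted p-value under 0.05 (at most the 8 with the smallest p), the 3 lowest and 3 highest log2 fold changes of each comparison and genes opposite to the median. The genes, lists and rules were chosen with earlier results of these data known. Separate mice gave the libraries, so p-values measure the spread between mice. No library was removed from the main fits. Each was left out in turn as an alternative, but groups of 3 were not tested for single outlying libraries.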

Additional observations from a re-analysis of the deposited data

How the results depend on the processing

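The direction of the group held in both comparisons under all settings tried, since the median of the 37 genes kept its sign. After IR no gene rose under any of them. The number that fell was 15, and it was 3 with size factors from cardiomyocyte markers (2.80% of all genes), 5 with all 12 libraries in 1 fit (3.35%) and 25 at a threshold of 0.1 (14.5%), against 9.74% as reported. It ranged from 1 to 35 when 1 library was left out, and the median from -0.39 to -0.23. With size factors from cardiomyocyte markers the median was -0.069.

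In libraries labelled Zeb2 cTg IR the number that rose was 1 (2.14% of all genes), and it was 0 with the cardiomyocyte markers (1.47%) and with the correction for length (2.10%), 5 with that for G+C content and length (3.34%; 6 and 3.62% with the longest transcript, a choice made after seeing the data), 10 with that for G+C content (3.56%), 12 with DESeq2 (5.15%), 13 at a threshold of 0.1 (5.86%), 14 with no filter on low counts (4.65%) and 16 with all 12 libraries in 1 fit (8.94%). The share of all genes that rose moved with most of these counts. It ranged from 0 to 16 when 1 library was left out. The median was 0.097 with the markers, 0.12 with the length correction and 0.21 with both corrections, and 0.25 to 0.37 when 1 library was left out. Tests lost with 1 library fewer rest on fewer samples; the other causes were not tested.

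Replicate numbers recur across groups, but separate animals carry them. The correlations of same-numbered deviations were -0.034, 0.012 and -0.015 in the table of WT hearts and 0.13, 0.26 and -0.042 in the other. The sign differed between pairs, and the numbers were not taken as pairs in the main fits. Zeb2 WT IR 1 correlated best with Zeb2 cTg IR 3 (0.33), not with its own number. Zeb2 WT IR 2 correlated best with its own number (0.26, against -0.12 and -0.25 with Zeb2 cTg IR 1 and 3). Replicate 2 also had the largest share of counts on the mitochondrial genome in both groups, 73.5% in Zeb2 WT IR and 70.6% in libraries labelled Zeb2 cTg IR. Whether same-numbered libraries shared a batch was not tested. With a replicate block, 10 genes fell after IR (8.72% of all genes), and 16 rose in libraries labelled Zeb2 cTg IR (8.94%). With the block and both corrections the latter number was 11 (3.61%, median 0.21), and with the block and the correction for G+C content, added after seeing the data, it was 8 (3.03%).

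Among the 19 genes that the naming rule chose in each comparison, under 22 settings, 328 of 418 values after IR kept their direction and side of the threshold, 48 lost the call, 33 gained one and 9 changed sign; in the other table the numbers were 322, 5, 44 and 47. After IR the sign changed with the cardiomyocyte markers for Ndufa1 (0.012), Ndufa11 (0.095), Ndufa4 (0.12), Ndufb2 (0.052) and Ndufb4 (0.22), for Ndufa11 with both corrections (0.018), with the block as well (0.015) and with the longest transcript (0.022), and for Ndufb4 when 1 library was left out (-0.092 to 0.010).

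In the Zeb2 table it changed with the markers for Ndufa4 (-0.082), Ndufb4 (-0.17), Ndufb6 (-0.076) and Ndufv2 (-0.20), with the length correction for Ndufa4 (-0.091), Ndufb4 (-0.15), Ndufb6 (-0.079) and Ndufv2 (-0.093), with the correction for G+C content for Ndufab1 (0.081), Ndufb10 (-0.011), Ndufb4 (-0.051), Ndufs1 (0.069) and Ndufs4 (0.11), and with both for Ndufab1 (0.075), Ndufb10 (-0.098), Ndufb4 (-0.14), Ndufs1 (0.062) and Ndufs4 (0.11). With the longest transcript these 5 had 0.046, -0.036, -0.16, 0.027 and 0.055, with the block and both corrections 0.079, -0.10, -0.15, 0.065 and 0.11, and with the block and the correction for G+C content 0.084, -0.013, -0.054, 0.072 and 0.11. Ndufs3 changed sign with no filter (0.0068) and with all 12 libraries (0.010), and Ndufv2 with upper-quartile factors (-0.0030). When 1 library was left out, the ranges that crossed 0 were -0.17 to 0.034 for Ndufab1, -0.094 to 0.18 for Ndufb4, -0.18 to 0.015 for Ndufs1, -0.12 to 0.047 for Ndufs3, -0.17 to 0.019 for Ndufs4 and -0.030 to 0.11 for Ndufv2.

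Zeb2 itself no longer passed after IR with the correction for G+C content (0.31), with both (0.31) and with the block and either (0.30 and 0.30), and ranged from 0.38 to 0.59 when 1 library was left out, passing in 3 of 6 such fits (adjusted p = 0.0850 without WT sham 1, 0.112 without WT sham 2 and 0.0951 without WT IR 2, edgeR). In libraries labelled Zeb2 cTg IR it moved from -0.069 to 0.12 with the correction for G+C content, 0.14 with both, 0.098 with the longest transcript, 0.14 with the block and both and 0.12 with the block and that for G+C content, and from -0.13 to 0.019 when 1 library was left out. Depth limits the low genes most, and in bulk tissue the counts give mRNA relative to the sum of all counts, not enzyme.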

Other observations

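Mitochondrial ribosomal proteins, which translate the complex I subunits of the mitochondrial genome, moved with the complex I genes after IR. Of 73 tested, 32 fell and 0 rose, beside 9.74% and 11.0% of all genes tested. Their median log2 fold change was -0.30, the same to 2 decimals as that of the 37. Mrpl12 (-0.82, adjusted p = 0.00391) and Mrpl34 (-0.84, adjusted p = 0.00481, edgeR's quasi-likelihood test) were among those that fell. Mrpl34 was the other way in libraries labelled Zeb2 cTg IR (0.92, adjusted p = 0.0133, edgeR). There 3 of 73 rose and 0 fell, beside 2.14% and 1.51% of all genes tested. Cytosolic ribosomal proteins, which have transcripts of similar length (median 858 bases, against 875), went the other way after IR. Of 70 tested, 29 rose and 3 fell, beside 11.0% and 9.74% of all genes tested, with a median of 0.29. Under the label Zeb2 cTg IR they lay on the same side as the complex I genes, with 61 of 77 above 0 and a median of 0.28. Of these 77, 3 rose and 1 fell, beside 2.14% and 1.51% of all genes tested.

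Of 11 regulators of these genes, 2 fell after IR, beside 9.74% of all genes tested. Esrra, an oestrogen-related receptor, had 34.3, 33.5 and 26.8 CPM in WT sham and 22.2, 15.1 and 16.6 CPM in WT IR (-0.82, adjusted p = 0.00797). Polrmt, the RNA polymerase of the mitochondrial genome, had 12.2, 10.6 and 10.2 CPM against 8.19, 5.95 and 6.45 CPM (-0.68, adjusted p = 0.0100). Ppargc1a, a coactivator of mitochondrial genes, had 77.4, 68.5 and 68.5 CPM against 75.6, 53.2 and 54.7 CPM (-0.22, adjusted p = 0.251). In libraries labelled Zeb2 cTg IR none of the 11 passed, and Ppargc1a was at 0.34 (adjusted p = 0.248).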
